A study of Mus musculus with 8 samples.

Results

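The 10 genes described here encode parts of the contractile actin cytoskeleton and secreted proteins that are commonly read as outputs of the transcription factor SRF and the coactivator YAP. They were chosen by name, with earlier results of these data known: Acta1, Tagln, Tagln2, Tpm1, Tpm2, Cnn2, Ccn1, Ccn2, Thbs1 and Timp3. They are 10 of 43346 genes counted in total RNA of mouse embryonic stem cells, and all 10 passed the filter on low counts that left 18055 genes for testing. Older names of Ccn1 and Ccn2 are Cyr61 and Ctgf. The series concerns how TRIM71, an RNA-binding protein, represses Mbnl1, the gene of a splicing regulator.

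Every line derived from 129xC57BL/6 embryonic stem cells carrying Cre-ERT2 and BirA-V5 at Rosa26, so the wild type bears these insertions too. The TRIM71 knockout (KO) is labelled TRIM71-/-. In the Mbnl1 3'UTR mutant both alleles of Mbnl1 carry a changed 3' untranslated region. The Mbnl1 overexpression (OE) line carries a stable transgene in which MBNL1 and puromycin resistance are joined by a self-cleaving peptide. The parental line without these changes is the wild type (WT). Each group has 2 libraries, and all cells grew on gelatin with serum and LIF. The labels give neither the number of clones per line nor whether the libraries of a group came from separate cultures, so the p-values below measure only the spread between these libraries, and differences between clones and effects of the alterations cannot be told apart.

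Actin exists as free monomers and as filaments. When monomers are used up by filament assembly, the cofactors MRTF-A and MRTF-B are released from them, enter the nucleus and act with SRF at a DNA element called the CArG box, found at many genes of actin and its binding proteins. YAP and its relative TAZ, held in the cytoplasm by the kinases of the Hippo pathway, act with TEAD factors at another element and are also sensitive to filament tension. Ccn1 and Ccn2 are standard readouts of YAP, and SRF acts at several of the same genes.

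RefSeq promoters (GRCm38.p6, 250 bases before to 50 after the start) were found for 7 of the 10 genes, all but Tagln, Ccn2 and Thbs1. The windows below are shown because they hold the elements named above. A CArG box lay in 2 of the 7 promoters, against 1.63% of 32851 promoters of the same length. The TEAD-type motif GGAATG, searched on both strands (reverse complement CATTCC), lay in 4 of the 7, against 14.7% of all. The genes were picked as commonly read outputs of SRF and YAP, so these shares are a description and not a test. No match overlapped another motif in capitals below. Each window is 30 bases long, read 5′ to 3′ on the strand of the gene, with the matched letters in capitals. A match describes the letters and does not show that a factor binds there. Distances are counted to the RefSeq start. For Tagln2 and Tpm1 the windows lie inside the gene span given further below, which comes from another annotation (GENCODE). Windows for Acta1 (chr8:123894829-123894858, minus strand) and Cnn2 (chr10:79988534-79988563, plus strand) hold the CArG box, 73 and 56 bases before the start. The motif GGAATG or its reverse complement is shown for Acta1 (chr8:123894804-123894833, minus, 46 bases before the start), Tagln2 (chr1:172500116-172500145 and chr1:172500154-172500183, plus, 118 and 80 bases before), Ccn1 (chr3:145650071-145650100, minus, 103 bases before) and Tpm1 (chr9:67049252-67049281, minus, 56 bases before).
Acta1 CArG box: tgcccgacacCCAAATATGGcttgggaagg
Cnn2 CArG box: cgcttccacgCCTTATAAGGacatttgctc
Acta1 GGAATG motif: gaagggcagcaaCATTCCttcggggcggtg
Tagln2 GGAATG motif, distal: tcctttacggctCATTCCtgcctactgacc
Tagln2 GGAATG motif, proximal: taagcgctccagCATTCCacgcggcggcgc
Ccn1 GGAATG motif: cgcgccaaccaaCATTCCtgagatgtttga
Tpm1 GGAATG motif: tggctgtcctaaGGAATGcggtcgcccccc

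Libraries held 75056306 to 86508533 counts. Levels are given as CPM, each gene's count as a share of the library's total after TMM, a correction for library composition, and 3 counts in a library correspond to 0.0335 to 0.0398 CPM. Intervals from counting alone are not used, because libraries differed by more than counting error. Trim71 stood at 101 and 105 CPM in the KO libraries, against 630 and 628 CPM in the WT libraries. Mbnl1 stood at 193 and 195 CPM in the OE libraries, 28.6 and 27.4 CPM in the mutant libraries and 48.8 and 50.9 CPM in the KO libraries. The WT libraries had 25.9 and 26.1 CPM. The log2 change of Mbnl1 RNA against WT was thus only 0.11 in the mutant, against 0.94 in KO and 2.90 in OE. Markers of embryonic stem cells were present in every library, the 8 listed genes summing to 4778 to 4805 CPM in KO, 4304 to 4343 CPM in the mutant, 4470 to 4538 CPM in OE and 3751 to 3777 CPM in WT. Of 12 muscle markers, 7 stayed under 1 CPM in every library, and the list summed to 52.4 to 53.3 CPM in KO, 42.6 to 45.9 CPM in the mutant, 65.6 to 70.5 CPM in OE and 44.8 to 45.7 CPM in WT. Gene by gene, 9 were tested against WT. In KO 2 were higher and 1 lower, in the mutant 1 was lower, and in OE 3 were higher and 4 lower. Of all tested genes, 44.8% differed from WT in KO, 15.5% in the mutant and 54.8% in OE. The median log2 changes of the 9 were -0.003 in KO, -0.67 in the mutant and -0.25 in OE. Single genes ran from -1.09 to 1.98 in KO, -1.55 to 0.05 in the mutant and -1.93 to 1.37 in OE. The listed genes that did not pass the filter were Myod1, Myog and Myl2, defining genes of skeletal and cardiac muscle. Each was at 0 in at least 1 library.

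In the knockout the 10 genes split, with 4 higher than in WT (Acta1, Timp3, Tagln and Tagln2), 4 lower (Ccn2, Cnn2, Ccn1 and Tpm2) and 2 not passing (Tpm1 and Thbs1). In the 3'UTR mutant 9 were lower than in WT and Tagln2 was higher. In overexpression 7 were lower, Tagln2 was higher, and Tpm2 and Cnn2 did not pass. In the knockout 44.8% of the tested genes were called (24.1% higher and 20.7% lower), 15.5% in the mutant (8.02% higher and 7.50% lower) and 54.8% in overexpression (27.7% higher and 27.1% lower). A gene is called changed at a Benjamini-Hochberg adjusted p under 0.05 over all 18055 genes in edgeR's quasi-likelihood test. The median log2 fold change of the 10 genes was -0.04 in KO, -0.80 in the mutant and -1.32 in OE, where the median of all tested genes was -0.01 in each comparison. Because the 10 genes were chosen with earlier results of these data known, setting these medians side by side is not a test. The 3 comparisons share the same 2 WT libraries. In bulk RNA, fewer cells that express a gene and less of its RNA per cell cannot be told apart, and this holds for every level below.

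**Figure D1:**
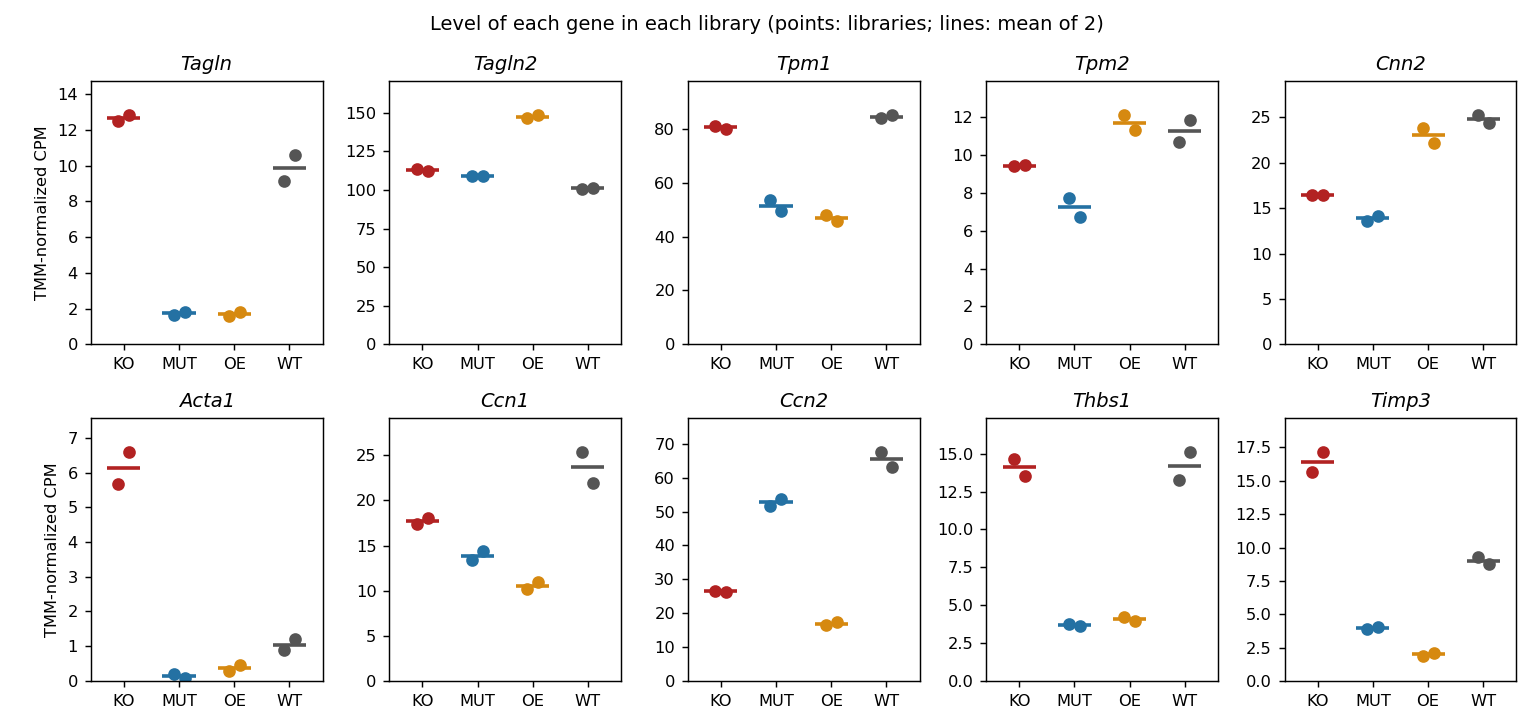
TMM-normalized CPM of each of the 10 genes in each of the 8 libraries, with KO, mutant (MUT), OE and WT from left to right and each vertical axis starting at 0. Points are libraries and lines are means of 2; Tagln and Thbs1 are low in the mutant and OE libraries alone, and Acta1 is highest in KO at 5.66 and 6.59 CPM.

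Acta1 (ENSMUSG00000031972.4, mm10 chromosome 8, 123891769 to 123894751 on the minus strand) encodes the alpha-actin of skeletal muscle and spanned the widest range of levels among the 10 genes. Its libraries held 486 and 543 counts in KO, 16 and 7 in the mutant, 26 and 40 in OE, and 70 and 90 in WT. On the CPM scale these were 5.66 and 6.59 CPM in KO, 0.193 and 0.0849 CPM in the mutant, 0.290 and 0.460 CPM in OE, and 0.887 and 1.19 CPM in WT. No group overlapped another, with KO highest and the mutant lowest. Acta1 rose 5.90-fold in KO against WT (log2 change 2.56, SE 0.158, adjusted p = 6.08e-09). It was 7.38-fold lower in the mutant than in WT (adjusted p = 4.93e-05) and 2.77-fold lower in OE (adjusted p = 0.000354). The mutant value rests on few counts, and without mutant replicate 1 it was 12.0-fold lower. The order between OE and the mutant was the least firm: Acta1 was 2.67-fold higher in OE (adjusted p = 0.0143), 4.35-fold higher without mutant replicate 1, 1.93-fold without mutant replicate 2 (adjusted p = 0.130) and 2.07-fold without OE replicate 2 (adjusted p = 0.134). Actins share long stretches of sequence, and how reads that match several actin genes were counted is not given in the sources used here.

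Tagln (ENSMUSG00000032085.4, chromosome 9, 45929619 to 45936058 on the minus strand), also called SM22-alpha, encodes an actin-bundling protein of smooth muscle and is a classical SRF target. It stood at 12.5 and 12.8 CPM in KO, 1.62 and 1.83 CPM in the mutant, 1.61 and 1.81 CPM in OE, and 9.17 and 10.6 CPM in WT. The mutant and OE libraries overlapped each other and lay far below WT, while both KO libraries lay above both WT libraries. Tagln was 5.73-fold lower in the mutant than in WT (log2 change -2.52, SE 0.104, adjusted p = 7.93e-10). It was 5.79-fold lower in OE (log2 change -2.53, SE 0.103, adjusted p = 2.71e-11). It rose 1.28-fold in KO (log2 change 0.36, SE 0.076, adjusted p = 0.00128). Between OE and the mutant the log2 change was -0.02 (SE 0.139, adjusted p = 0.932). Its exons share 108 bases with those of Pcsk7 on the opposite strand, and the counts were strand-specific.

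Tagln2 (ENSMUSG00000026547.11, chromosome 1, 172500047 to 172507380 on the plus strand), its more widely expressed relative, was higher where Tagln was lower, in the mutant and OE, and both were higher in KO. It stood at 114 and 112 CPM in KO, 109 and 109 CPM in the mutant, 147 and 148 CPM in OE, and 101 and 101 CPM in WT. Every altered library was above both WT libraries, and OE was highest. The rise was 1.46-fold in OE (log2 change 0.55, SE 0.033, adjusted p = 2.60e-09) and 1.12-fold in KO (adjusted p = 0.00102). The 1.08-fold rise in the mutant was marginal (adjusted p = 0.0360). That call was lost in 9 of 15 alternatives, namely a fit of only the mutant and WT (adjusted p = 0.125), scaling by library size only (0.0793), the replicate number as a block (0.0596) and fits without WT replicate 1 (0.130), WT replicate 2 (0.0920), KO replicate 1 (0.0718), KO replicate 2 (0.0792), mutant replicate 1 (0.0795) or OE replicate 2 (0.0578).

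Tropomyosins lie along actin filaments and stabilize them. Tpm1 (ENSMUSG00000032366.11, chromosome 9, 67022590 to 67049406 on the minus strand) stood at 81.2 and 80.1 CPM in KO, 53.4 and 49.4 CPM in the mutant, 48.1 and 45.8 CPM in OE, and 84.0 and 85.0 CPM in WT. The mutant and OE libraries all lay well below the KO and WT libraries. Tpm1 was 1.64-fold lower in the mutant than in WT (log2 change -0.72, SE 0.044, adjusted p = 5.31e-08) and 1.80-fold lower in OE (log2 change -0.85, adjusted p = 3.77e-10). In KO the log2 change was -0.07 and did not pass (SE 0.043, adjusted p = 0.223). OE was 1.09-fold lower than the mutant (adjusted p = 0.0220), which did not pass with library size as the only scaling (adjusted p = 0.298), in a fit of only OE and the mutant (0.0533), without mutant replicate 1 (0.217) or without OE replicate 2 (0.193). Counts per gene do not separate the many splice forms of Tpm1.

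Tpm2 (ENSMUSG00000028464.12, chromosome 4, 43514711 to 43523765 on the minus strand) differed from Tpm1 in overexpression. It stood at 9.46 and 9.46 CPM in KO, 7.76 and 6.73 CPM in the mutant, 12.1 and 11.4 CPM in OE, and 10.7 and 11.9 CPM in WT. OE and WT overlapped, KO lay below them and the mutant was lowest. The fall was 1.56-fold in the mutant (log2 change -0.64, SE 0.079, adjusted p = 4.79e-05). In OE the log2 change was 0.06 (SE 0.074, adjusted p = 0.541). The 1.19-fold lower level in KO (adjusted p = 0.0128) did not pass without WT replicate 2 (adjusted p = 0.129), KO replicate 1 (0.0707) or KO replicate 2 (0.0678).

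Cnn2 (ENSMUSG00000004665.6, chromosome 10, 79988584 to 79996062 on the plus strand) encodes calponin-2, an actin-binding protein of smooth muscle and other cells. It stood at 16.5 and 16.4 CPM in KO, 13.6 and 14.1 CPM in the mutant, 23.9 and 22.2 CPM in OE, and 25.2 and 24.4 CPM in WT. The KO and mutant libraries were low and separate from each other, and both OE libraries lay just under WT. Cnn2 was 1.79-fold lower in the mutant than in WT (log2 change -0.84, SE 0.054, adjusted p = 9.39e-08) and 1.51-fold lower in KO (log2 change -0.59, adjusted p = 3.23e-07). In OE the log2 change of -0.11 did not pass (SE 0.051, adjusted p = 0.0854).

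Ccn1 and Ccn2 encode secreted matricellular proteins that bind integrins. Ccn1 (ENSMUSG00000028195.3, chromosome 3, 145646976 to 145649981 on the minus strand) stood at 17.4 and 18.1 CPM in KO, 13.4 and 14.4 CPM in the mutant, 10.2 and 10.9 CPM in OE, and 25.4 and 21.9 CPM in WT. The groups did not overlap, and their levels ran upward in the order OE, mutant, KO, WT. Against WT, Ccn1 was 1.34-fold lower in KO (adjusted p = 0.000123), 1.70-fold lower in the mutant (adjusted p = 2.18e-06) and 2.24-fold lower in OE (log2 change -1.16, SE 0.070, adjusted p = 2.20e-09). Each neighbouring pair in that order differed past the test.

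Ccn2 (ENSMUSG00000019997.7, chromosome 10, 24595442 to 24598683 on the plus strand) stood at 26.7 and 26.2 CPM in KO, 51.7 and 53.6 CPM in the mutant, 16.4 and 17.4 CPM in OE, and 67.6 and 63.2 CPM in WT. Here KO and OE were low and the mutant lay close under WT, again with no overlap. Ccn2 was 3.86-fold lower in OE than in WT (log2 change -1.95, SE 0.049, adjusted p = 2.56e-13) and 2.47-fold lower in KO (log2 change -1.31, SE 0.047, adjusted p = 2.69e-11). In the mutant it was 1.24-fold lower (adjusted p = 0.000216). It was the only one of the 10 genes lower in KO than in the mutant, 1.99-fold (SE of the log2 change 0.047, adjusted p = 3.29e-10).

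Thbs1 (ENSMUSG00000040152.8, chromosome 2, 118111876 to 118127133 on the plus strand) encodes thrombospondin-1, a matricellular protein that binds CD36 and CD47 and can activate latent TGF-beta. It stood at 14.7 and 13.6 CPM in KO, 3.75 and 3.64 CPM in the mutant, 4.20 and 3.95 CPM in OE, and 13.3 and 15.1 CPM in WT. KO and WT overlapped, and the mutant and OE libraries lay far below them. Thbs1 was 3.84-fold lower in the mutant than in WT (log2 change -1.94, SE 0.084, adjusted p = 1.16e-09) and 3.47-fold lower in OE (log2 change -1.80, SE 0.082, adjusted p = 1.00e-10). In KO the log2 change was -0.01 (SE 0.070, adjusted p = 0.961). Between OE and the mutant it was 0.14 (SE 0.099, adjusted p = 0.243).

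Timp3 (ENSMUSG00000020044.9, chromosome 10, 86300372 to 86349506 on the plus strand) encodes a matrix-bound inhibitor of metalloproteases. It stood at 15.7 and 17.2 CPM in KO, 3.88 and 4.06 CPM in the mutant, 1.87 and 2.12 CPM in OE, and 9.27 and 8.75 CPM in WT. The 4 groups were fully separate, with KO above WT and the mutant and OE below it. Timp3 was 1.82-fold higher in KO than in WT (log2 change 0.86, SE 0.069, adjusted p = 9.84e-08). It was 2.27-fold lower in the mutant (log2 change -1.18, adjusted p = 2.03e-07) and 4.52-fold lower in OE (log2 change -2.18, adjusted p = 4.70e-11). Its exons share 1733 bases with Syn3 on the opposite strand, which averaged 62.8 counts per library.

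The lines were also set against each other directly. In KO against the mutant, 8 of the 10 genes were higher, Ccn2 was lower and Tagln2 did not pass (adjusted p = 0.229), where 45.5% of all tested genes changed (24.4% higher and 21.1% lower). The differences ran to 43.5-fold for Acta1, 7.34-fold for Tagln, 4.13-fold for Timp3 and 3.82-fold for Thbs1. The Acta1 value was 70.9-fold without mutant replicate 1. In KO against OE, where 54.8% of all genes changed (27.5% higher and 27.3% lower), all 10 genes differed: 7 were higher and Tagln2, Tpm2 and Cnn2 were lower in KO. Acta1 was 16.3-fold, Timp3 8.23-fold and Tagln 7.43-fold higher in KO than in OE. These contrasts share the KO libraries.

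Overexpression and the mutant were set against each other in the remaining contrast, where 52.0% of all genes changed (26.8% higher and 25.2% lower). Of the called genes 51.5% were higher in OE, and 63.5% with library size as the only scaling. In OE 4 of the 10 genes were higher (Acta1, Cnn2, Tpm2 and Tagln2), 4 were lower (Ccn2, Timp3, Ccn1 and Tpm1), and Tagln and Thbs1 did not pass. Ccn2 was 3.11-fold lower (adjusted p = 2.69e-12) and Timp3 1.99-fold lower in OE (adjusted p = 1.44e-06). Cnn2 was 1.66-fold higher in OE (adjusted p = 2.94e-08) and Tpm2 1.62-fold higher (adjusted p = 2.38e-06). The number called fell to 6 without OE replicate 2, when Acta1 and Tpm1 did not pass.

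**Figure D2:**
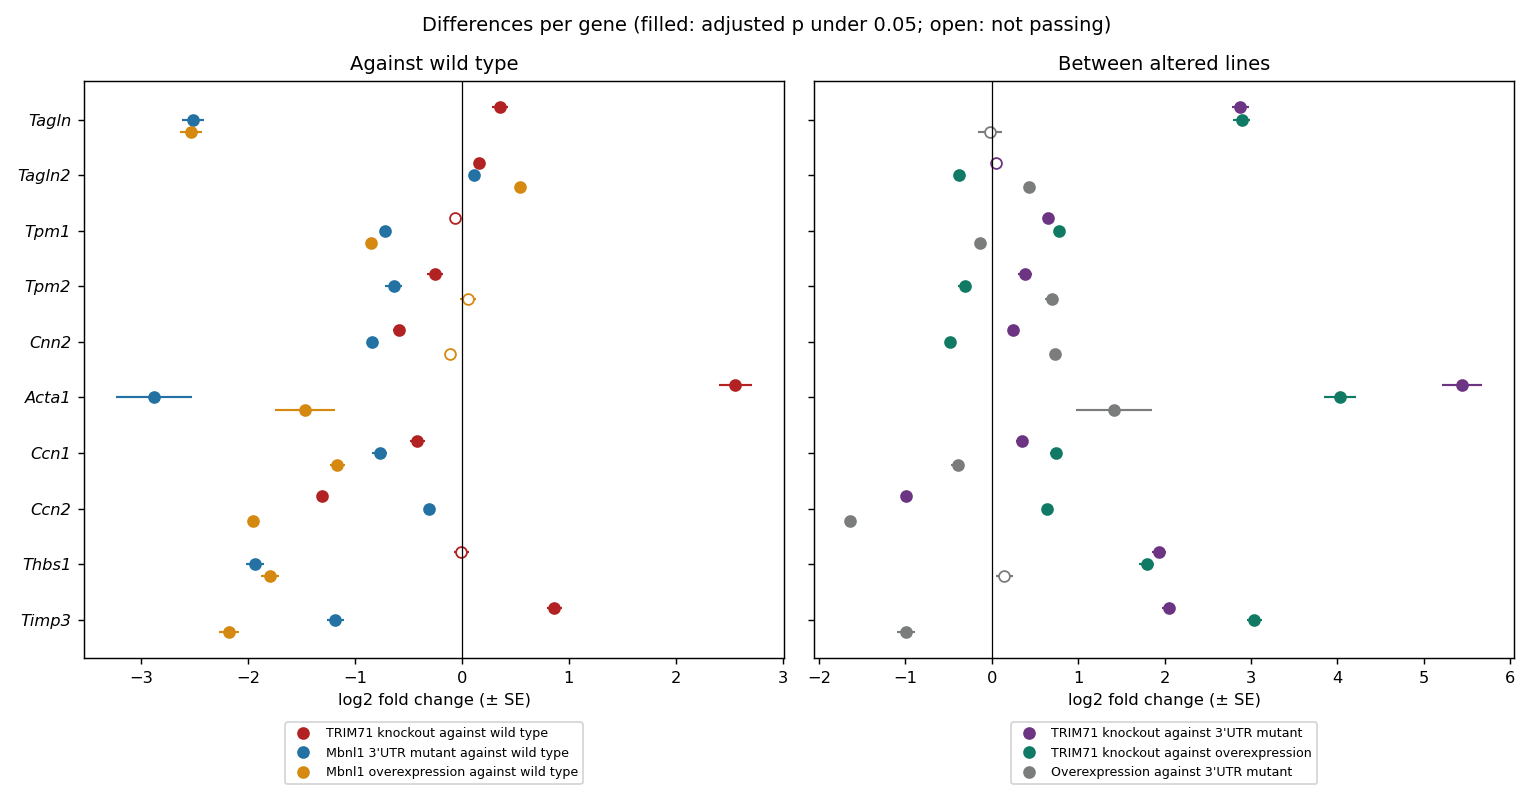
Log2 fold changes (horizontal axis, with SE bars) of the 10 genes against WT on the left and between the altered lines on the right. Filled points passed the test and open points did not; on the left, Tagln2 is the only gene to the right of 0 in the mutant, and Acta1 spreads from -2.88 in the mutant to 2.56 in KO.

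Per kb of exon, the scale on which different genes can be compared, Tagln2 had the highest mean level in every group, 54.3 CPM per kb in KO, 52.4 in the mutant, 70.8 in OE and 48.5 in WT. In WT it was followed by Ccn2 at 22.8, Tpm1 at 13.0, Ccn1 at 11.7 and Cnn2 at 10.1 CPM per kb. Acta1 was lowest in WT at 0.677 CPM per kb, but at 3.99 CPM per kb in KO it lay above Tpm2 (3.25), Thbs1 (2.32) and Timp3 (2.02). For scale, the cytoplasmic actin gene Actb stood at 1155 CPM per kb in KO and 1476 in WT.

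The families of the 10 genes held 21 further listed paralogs, of which 17 were tested. Of these, 5 rose and 5 fell in KO, 1 rose and 3 fell in the mutant, and 3 rose and 8 fell in OE. Among all tested genes, 44.8% were called in KO, 15.5% in the mutant and 54.8% in OE. The KO count of 10 dropped to 6 without KO replicate 2. Among actins, Acta2, which encodes the smooth muscle form, stood at 4.19 and 3.93 CPM in KO, 0.121 and 0.788 CPM in the mutant, 0.167 and 0.115 CPM in OE, and 1.32 and 1.51 CPM in WT. KO lay above WT and the rest below it, with the mutant libraries far apart. Acta2 rose 2.88-fold in KO (adjusted p = 0.0131) and fell in OE, 9.88-fold (adjusted p = 0.00791), while the log2 change of -1.63 in the mutant did not pass (adjusted p = 0.110). The cytoplasmic actin gene Actb fell 1.28-fold in KO (adjusted p = 1.11e-06) and 1.14-fold in OE (adjusted p = 0.000323), and its log2 change was 0.02 in the mutant. Actg1 rose 1.11-fold in KO (adjusted p = 0.00278).

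Other paralogs shared the direction of their relatives in some comparisons and not in others. Cnn1, the smooth muscle calponin, rose 1.54-fold in KO, where Cnn2 and Cnn3 fell. Tpm3, the most abundant tropomyosin gene by counts, had log2 changes of 0.08 in KO, 0.17 in the mutant and 0.07 in OE, of which the mutant value passed (adjusted p = 0.0254). Tpm4 fell in all 3 lines, by 0.12 in KO, 0.29 in the mutant and 0.22 in OE on the log2 scale. Ccn4, at 0.621 and 0.756 CPM in WT, was 4.33-fold lower in the mutant and 8.52-fold lower in OE, with a log2 change of -0.18 in KO that did not pass (adjusted p = 0.550). Thbs3 fell in every line, 1.71-fold in KO, 1.24-fold in the mutant and 1.27-fold in OE. Timp2 rose 2.88-fold in KO and 1.68-fold in OE, where Timp3 fell, and Timp4 rose 3.73-fold in KO to 0.489 and 0.486 CPM, against 0.152 and 0.106 CPM in WT.

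**Figure D3:**
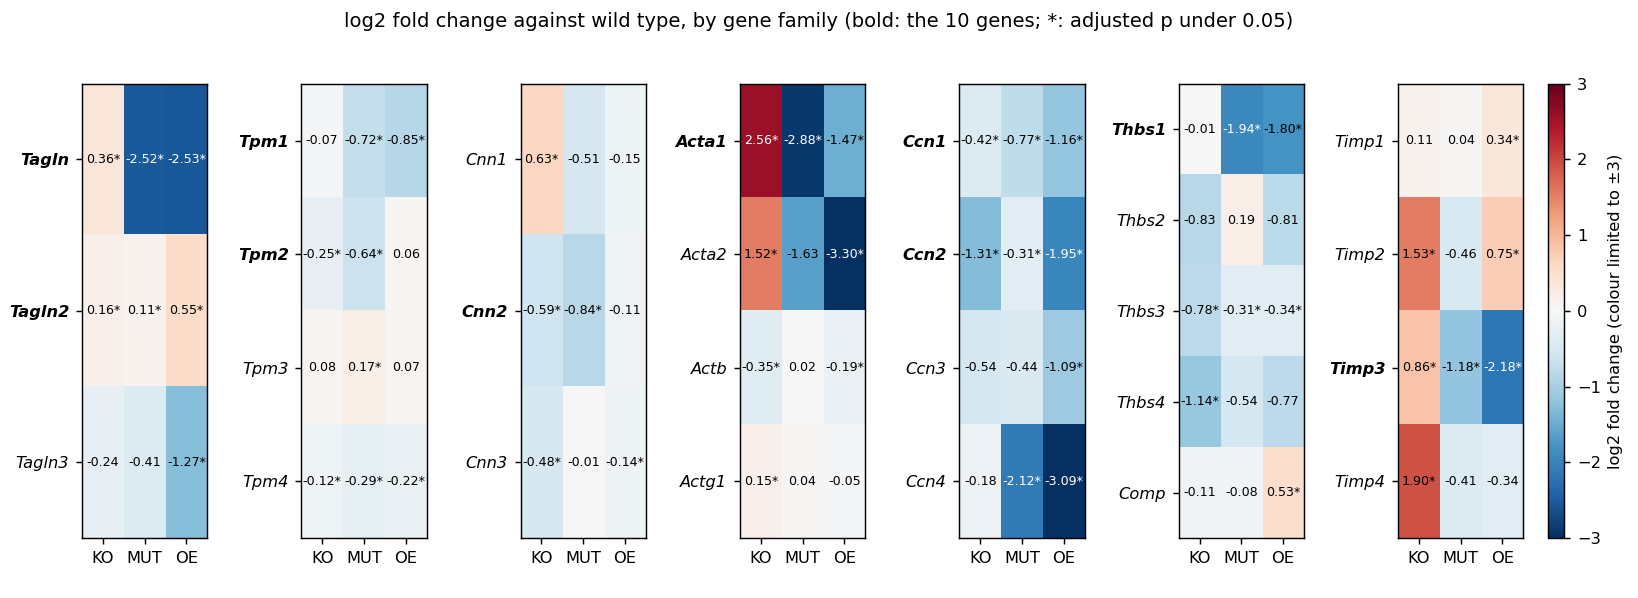
Log2 fold changes against WT in KO, mutant (MUT) and OE for the 10 genes (bold) and their tested paralogs, 1 block per family, with the value printed in each cell and an asterisk where the test was passed. Red is higher and blue is lower than WT; Timp2 (0.75) and Timp3 (-2.18) carry opposite signs in OE, and Acta2 (1.52) and Acta1 (2.56) are both higher in KO.

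Srf rose 1.17-fold in KO (log2 change 0.23, adjusted p = 0.00214) and 1.16-fold in OE (log2 change 0.21, adjusted p = 0.00256), and its log2 change of -0.12 in the mutant did not pass. Mrtfa, encoding MRTF-A, passed in no comparison with WT, with log2 changes of -0.12 in KO, -0.10 in the mutant and -0.03 in OE. Mrtfb, encoding MRTF-B, fell by 0.24 in KO. Elk3, a ternary complex factor that acts with SRF, rose in all 3 lines, by 0.40 in KO, 0.36 in the mutant and 0.59 in OE on the log2 scale. Myocd, encoding the SRF cofactor myocardin, averaged 0.0980 CPM and fell by 1.93 in OE on the log2 scale (adjusted p = 0.0108), and its log2 changes of -0.61 in KO and -0.67 in the mutant did not pass. With DESeq2 in place of edgeR, Myocd was not called in OE. Of the 7 genes in this list, 3 rose and 1 fell in KO, 1 rose in the mutant, and 3 rose and 1 fell in OE. The shares called over all tested genes were 44.8% in KO, 15.5% in the mutant and 54.8% in OE. The KO count of 4 was 2 without WT replicate 1 or without KO replicate 1, and the mutant count was 2 without WT replicate 2.

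Yap1 stood at 206 and 208 CPM in KO, 211 and 211 CPM in the mutant, 204 and 208 CPM in OE, and 206 and 201 CPM in WT, with log2 changes of 0.02 in KO, 0.05 in the mutant and 0.01 in OE, each with an SE of 0.033. Wwtr1, encoding TAZ, stood at 42.2 and 43.3 CPM in KO, 51.9 and 48.6 CPM in the mutant, 49.4 and 50.2 CPM in OE, and 33.7 and 33.9 CPM in WT. Every altered library was above WT. Wwtr1 rose 1.26-fold in KO (adjusted p = 1.50e-05), 1.49-fold in the mutant (adjusted p = 4.12e-07) and 1.47-fold in OE (adjusted p = 3.67e-08). Tead4, a DNA-binding partner, also rose in each line, by 0.47 in KO, 0.37 in the mutant and 0.34 in OE on the log2 scale. Amot, whose product binds YAP and actin, fell by 1.28 in OE (adjusted p = 1.88e-09). Of 20 Hippo, YAP and TEAD genes, 9 rose and 5 fell in KO, and 3 rose and 2 fell in the mutant. In OE 7 rose and 6 fell. Over all tested genes 44.8% were called in KO, 15.5% in the mutant and 54.8% in OE. Fewer of the 20 were called in KO without KO replicate 1.

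Other genes commonly listed as SRF targets of the cytoskeleton, 22 in all and all tested, had median log2 changes of 0.03 in KO, -0.12 in the mutant and -0.01 in OE. Only the medians were close to those of all genes. Of the 22, 13 were called in KO, 9 in the mutant and 21 in OE, against 44.8%, 15.5% and 54.8% of all genes. In the mutant 7 of the 22 were lower, against 7.50% of all genes. In KO 9 rose and 4 fell. Fhl1, a LIM-domain gene, rose 1.38-fold, Tuft1 1.29-fold and the nonmuscle myosin gene Myh9 1.22-fold, while the integrin gene Itga5 fell 1.28-fold. In the mutant 2 rose (Tln1 and Pdlim5) and 7 fell, among them Zyx (1.51-fold), which encodes the focal adhesion protein zyxin, Lima1 (1.30-fold), Cald1 (1.27-fold) and Fhl1 (1.24-fold). In OE 11 rose and 10 fell, with Lima1 2.25-fold, Synpo2 1.70-fold and Fhl1 1.55-fold lower and the talin gene Tln1 1.42-fold higher. The list holds 5 genes under 1 CPM on average, named after their values were seen, and they did not move together. Fhl2 and Myl9 were 3.89-fold and 3.61-fold lower in the mutant and 3.94-fold and 3.54-fold lower in OE, and did not pass in KO. Lmod1, encoding the actin nucleator leiomodin-1, was 2.82-fold higher in KO and 2.23-fold higher in OE. Tgfb1i1 was higher in KO (log2 change 0.78) and lower in OE (-0.65), and Filip1l was lower in OE (-1.18).

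Immediate early genes are controlled by SRF with ternary complex factors. Of 10, 5 fell and 2 rose in KO, 1 fell and 2 rose in the mutant, and 5 fell and 1 rose in OE. The share of all tested genes called was 44.8% in KO, 15.5% in the mutant and 54.8% in OE. Egr1 stood at 2.14 and 2.14 CPM in KO, 10.8 and 9.75 CPM in the mutant, 5.86 and 6.23 CPM in OE, and 13.1 and 12.0 CPM in WT. All altered libraries were below WT. Egr1 was 5.87-fold lower in KO (adjusted p = 2.24e-11), 1.22-fold lower in the mutant (adjusted p = 0.0125) and 2.08-fold lower in OE (adjusted p = 1.55e-08). Fos was 1.52-fold lower in KO and 1.96-fold lower in OE, and Nr4a1 1.30-fold higher in the mutant.

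Of 25 further YAP targets, 23 were tested. In KO 8 rose and 11 fell, in the mutant 3 rose and 6 fell, and in OE 4 rose and 15 fell. Of all tested genes, 24.1% rose and 20.7% fell in KO, 8.02% and 7.50% in the mutant, and 27.7% and 27.1% in OE. Median log2 changes were -0.12 in KO, -0.08 in the mutant and -0.45 in OE. The genes named below for KO all fell, but the KO changes of the list ran from -1.68 to 2.14. In a fit of genes averaging at least 1 CPM, 6 of the list rose and 8 fell in KO. Ptpn14, encoding a phosphatase that binds YAP, stood at 29.5 and 30.4 CPM in KO, 48.8 and 48.0 CPM in the mutant, 31.2 and 32.4 CPM in OE, and 75.9 and 66.8 CPM in WT. Every altered library was below WT, and KO and OE lay below the mutant. Ptpn14 was 2.39-fold lower in KO (adjusted p = 1.50e-10), 1.47-fold lower in the mutant (adjusted p = 3.25e-06) and 2.24-fold lower in OE (adjusted p = 1.04e-10). The ectonucleotidase gene Nt5e was 3.21-fold lower in KO but 1.45-fold higher in the mutant, and the tissue factor gene F3 was 2.33-fold lower in KO. Other named changes were Dock5 (1.53-fold lower in KO), Axl (1.69-fold lower in the mutant) and Igfbp3 (1.43-fold lower in the mutant and 1.73-fold lower in OE). Myof (2.33-fold) and the kinase gene Nuak2 (1.85-fold) were higher in OE.

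**Figure D4:**
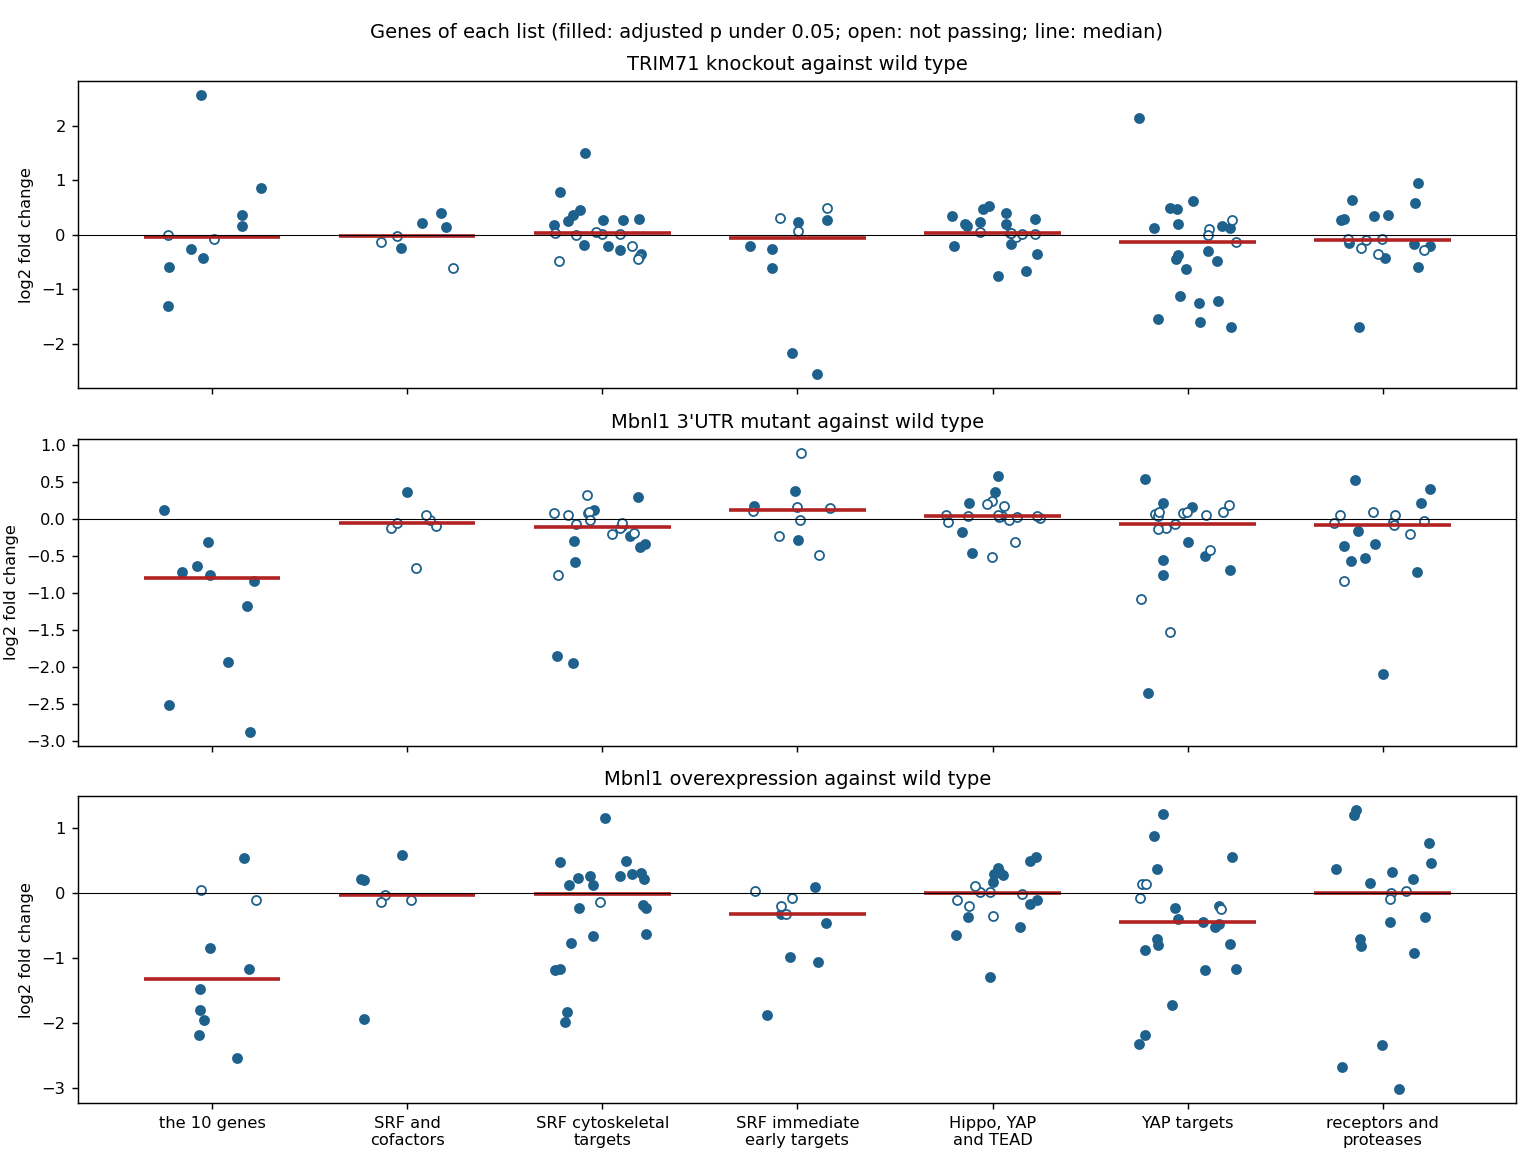
Log2 fold changes against WT for the 10 genes and for 6 lists of related genes, with 1 panel per line and 1 point per tested gene, filled where the test was passed; red lines are medians. The 10 genes have medians of -0.80 in the mutant and -1.32 in OE, and the YAP targets have a median of -0.45 in OE.

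Receptors and proteases related to the secreted proteins comprised 20 genes, 19 of them tested. In KO 7 rose and 6 fell, in the mutant 3 rose and 7 fell, and in OE 8 rose and 8 fell. Called among all tested genes were 44.8% in KO, 15.5% in the mutant and 54.8% in OE. The mutant count of 10 was 6 without WT replicate 1. Cd47, a thrombospondin receptor gene, was 1.49-fold lower in the mutant and 1.89-fold lower in OE. The other receptor gene, Cd36, did not pass the filter. Among integrin genes, Itgb3 was higher in each line, 1.56-fold in KO, 1.44-fold in the mutant and 2.43-fold in OE, and Itga6 2.30-fold higher in OE. Adamts1, encoding a secreted protease, was 6.35-fold lower in OE, at 3.20 and 3.15 CPM against 20.8 and 19.5 CPM in WT, and 1.45-fold lower in the mutant. Adamts4 rose 1.94-fold in KO.

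Markers of other cell types moved with these groups. Of 12 fibroblast markers 9 were tested, 6 stayed under 1 CPM in every library, and Lum was at 0 in all but 1 KO library. The list summed to 480 to 507 CPM in KO, 638 to 661 CPM in the mutant, 647 to 679 CPM in OE and 634 to 702 CPM in WT, most of it Fn1. Col6a1 stood at 3.41 and 3.75 CPM in KO, 0.157 and 0.206 CPM in the mutant, 0.100 and 0.0345 CPM in OE, and 0.595 and 0.332 CPM in WT. It was thus highest in KO and below WT in the mutant and OE, which the list as a whole was not. Of the 9 tested, 6 were higher and 1 lower in KO, 2 higher and 2 lower in the mutant, and 4 higher and 3 lower in OE, with median log2 changes of 0.52 in KO, -0.17 in the mutant and -0.05 in OE. The 10 primitive endoderm markers summed to 215 to 220 CPM in KO, 485 to 558 CPM in the mutant, 392 to 395 CPM in OE and 338 to 351 CPM in WT. That sum is mostly Lama1 and Lamb1. Gene by gene, 1 was higher and 9 lower in KO, 6 higher and 1 lower in the mutant, and 2 higher and 7 lower in OE, with median log2 changes of -2.46 in KO, 0.54 in the mutant and -0.75 in OE. The 8 trophoblast markers, of which 7 were tested and 3 stayed under 1 CPM in every library, summed to 121 CPM in both KO libraries, 59.1 to 65.7 CPM in the mutant, 79.1 to 80.5 CPM in OE and 113 to 115 CPM in WT. Like Tagln and Thbs1, that sum was low in the mutant and OE. Gene by gene, 3 were higher and 4 lower in KO, 4 lower in the mutant and 5 lower in OE. Their median log2 changes were -0.31 in KO, -0.74 in the mutant and -1.16 in OE. In KO the sum thus lay above WT while the median change was below 0. For all these marker lists, the share called among all tested genes was 44.8% in KO, 15.5% in the mutant and 54.8% in OE. The part of these cell types in the levels of the 10 genes was not tested.

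For each of the 10 genes the 3 genes with the most similar pattern were found by Pearson's r of log2 CPM over the 8 libraries, among 12780 genes with a mean of at least 1 CPM. The libraries form 4 pairs, so r mostly reflects the 4 group levels and is given as a description. Tagln and Thbs1 were each among the other's nearest 3 (r = 0.991), with Sall2 (0.992) and Gm13110 (0.991) also near Tagln and Stmn2 (0.995) and Zfp951 (0.991) near Thbs1. Stmn2, a gene of neuronal microtubules, averaged 49.3 CPM in KO, 4.03 CPM in the mutant, 6.07 CPM in OE and 52.5 CPM in WT. Tpm1 was most like Palld (0.993), which encodes the actin-binding protein palladin, then Car12 (0.984) and Rdh10 (0.983). Timp3 was most like Pla2g4a (0.996), Prickle1 (0.995) and Limk2 (0.994), the last a kinase gene of actin turnover. Ccn2 was most like Runx1t1 (0.999), Rragb (0.998) and Slc6a15 (0.997), and Ccn1 most like Cyyr1 (0.988), Arl4c (0.986) and Mgmt (0.984). Acta1 was most like Kif13a (0.989), Pcgf5 (0.984) and the urokinase gene Plau (0.982). Cnn2 was nearest to Mturn (0.985), Notch3 (0.973) and Ttc28 (0.964), Tpm2 to Nes (0.985), Igfbp4 (0.973) and Gm2381 (0.951), and Tagln2 to Nol4l (0.999), Celf5 (0.999) and Stradb (0.999).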

How the data were processed

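Total RNA of 8 libraries was sequenced on a stranded protocol with 75 nt paired-end reads, per the labels' protocols. The submitters' processing notes name STAR 2.5.0 and mm10. Each deposited file lists unnormalized counts per gene from the authors. Which annotation release they used, and how they treated reads matching several genes, is not given in the sources used here. Symbols and coordinates came from GENCODE M21, matched by identifier for 42462 of 43346 genes. Noncoding genes inside abundant genes had a median of 0.388 counts per kb on the opposite strand (206 genes) and 34.0 on the same strand (130 genes), so the counts were strand-specific.

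Counts were tested in R 4.3.3 with edgeR 4.0.16: filterByExpr (minimum count 10, total 15), TMM scaling, and 1 robust quasi-likelihood fit of 4 groups with 4 residual degrees of freedom, with Benjamini-Hochberg adjustment over 18055 genes and calls at an adjusted p under 0.05. With 2 libraries against 2, exact permutation has a smallest p of 0.333. On simulated KO and WT libraries with 18055 genes, 48.8% of genes raised or lowered 1.25-fold were called, 64.4% at 1.5-fold, 77.2% at 2-fold and 92.4% at 4-fold (250 genes per size), and 7.46% of all calls were false. Each of the 5 simulations changed only a small share of the genes, and only in KO. In the data 44.8% of the genes were called in KO against WT, so these rates need not hold there. The fit was rerun under 15 alternatives, among them DESeq2 1.42.0, other scalings and filters, and leaving out each library. The 10 genes, the lists and the tests were chosen with earlier results of these data known. Named are the 10 genes, their paralogs, the SRF and Hippo regulators, up to 4 changed genes of at least 1 CPM per other list and comparison, and the 3 genes most like each of the 10. Promoters came from RefSeq (GRCm38.p6). A further list of related genes is not reported here.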

Additional observations from a re-analysis of the deposited data

How the results depend on the processing

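Under 15 alternatives, 874 of 900 log2 fold changes of the 10 genes (6 comparisons) kept their direction and their side of the threshold, 18 kept the direction but no longer passed, and 8 changed sign. The sign changes concerned values that did not pass. With library size only, the log2 change of Tagln in OE against the mutant was 0.052 and that of Thbs1 in KO against WT 0.0010. Leaving out 1 library gave -0.10 to 0.074 for Tagln in that contrast (above 0 without mutant replicate 2 or OE replicate 1), -0.013 to 0.13 for Tpm2 in OE against WT (below 0 without WT replicate 1) and -0.096 to 0.092 for Thbs1 in KO against WT (above 0 without WT replicate 2, KO replicate 2 or OE replicate 1). The lost calls were those named in the report for Tagln2, Tpm1, Tpm2 and Acta1. For these, the cause was not tested.

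Leaving out 1 library at a time gave 7 to 8 of the 10 genes called in KO, 9 to 10 in the mutant and 8 in OE against WT, 9 in KO against the mutant, 6 to 8 in OE against the mutant and 10 in KO against OE. Over all genes the counts ran between 5932 and 8641 in KO, 1768 and 3163 in the mutant and 8214 and 10448 in OE against WT, 6020 and 8326 in KO against the mutant, 7661 and 9468 in OE against the mutant, and 7950 and 10393 in KO against OE. The lowest mutant value came without WT replicate 1. With either WT library left out, the spread of the single WT library is taken from the other groups. Genes resembling ribosomal RNA, among them Gm26917 and Gm42418, held 4.82% of the counts in WT replicate 1. In the other libraries they held 2.24% to 2.98%. The part of this difference in the calls was not tested. In OE against the mutant, TMM gave 4832 genes higher and 4552 lower, while scaling by library size alone gave 5824 higher and 3342 lower. The same scaling turned the balance in the mutant against WT, with 1186 higher and 1495 lower in place of 1448 and 1354, and in KO against OE, with 4185 higher and 5589 lower in place of 4962 and 4931. DESeq2 gave 1408 higher and 882 lower in the mutant. Without KO replicate 2 or with DESeq2, 6 paralogs were called in KO.

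The replicate numbers gave no pairing of libraries between groups: differences between replicates correlated at -0.034 to 0.060. With the replicate number as a block, 1 call among 60 tests of the 10 genes was lost, Tagln2 in the mutant (adjusted p = 0.0596), and 7899, 2615 and 9766 genes were called in KO, the mutant and OE against WT. Depth limits Acta1 most, with 16 and 7 counts in the mutant libraries.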
